A study of Mus musculus with 10 samples.

Results

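Cytokines that signal through Jak kinases and Stat5 switch on genes whose proteins act back on the same pathway. The genes followed here were 10 named Jak-Stat5 components and cytokine-induced feedback genes: the suppressors of cytokine signalling Socs1, Socs2 and Socs3, the related Cish, the kinases Pim1 and Pim2, the transcription factors Stat5a and Stat5b, and the receptor-associated kinases Jak1 and Jak3. They were chosen by name, and all 10 of 10 were found among the 24062 genes listed. RNA was sequenced from 10 libraries of mouse cells grown from Lin-SCA1+KIT+ (LSK) marrow progenitors of C57BL/6J mice, in medium with SCF, FLT-3 ligand, IL-6 and IL-11. Control cultures grew on human IgG, a condition without Notch ligand, and were harvested on day 14 (IgG, 4 libraries, named D1, D2, R1 and R2 in the labels). The other cultures grew on a high density of immobilised Delta1 ext-IgG, a Notch ligand, and gave sorted DN1 (KIT++CD44+CD25-), DN2a (KIT++CD44+CD25+) and DN2b (KIT+CD44lo CD25+) cells, with 2 libraries per stage, replicates 1 and 2, whose labels carry dates in successive years. The cultures that gave DN1 held no IL-7, whereas IL-7 had been added on day 14 to those that gave DN2a and DN2b. The study states, for its DNA accessibility samples, that the DN stages were harvested in sequence. The days of harvest of the DN cells are not given in the sources used here. Stage, IL-7 and time in culture therefore cannot be told apart in any comparison of DN2 with DN1. The ages and number of the mice are not given in the sources used here.

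IL-7 binds a receptor made of the IL-7 receptor alpha chain and the common gamma chain, which carry the kinases JAK1 and JAK3. These phosphorylate STAT5A and STAT5B, which enter the nucleus and switch on survival genes together with Socs and Cish genes, whose proteins dampen the receptor, the Jaks or Stat binding. IL-7 is a survival and growth factor of early T cell precursors, and IL-6, through its receptor subunit gp130 and STAT3, is a strong inducer of Socs3 in many cells. These are textbook facts and were not measured here.

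Levels are given as CPM, the reads on a gene relative to all reads on genes in that library, scaled between libraries by the trimmed mean of M-values (TMM). The libraries held 12354635 to 35367925 reads on genes, and none of the 10 genes fell below 7 reads in any library. All of them were among the 12221 genes kept for testing, those with 1 CPM or more in 2 or more libraries. A change is called where the p-value of edgeR's quasi-likelihood test, adjusted by Benjamini-Hochberg over those 12221 genes, was under 0.05. With 2 libraries per DN stage, an SD rests on 2 values.

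The sort was seen clearly in the RNA of Il2ra, which encodes CD25. Il2ra was at 0.392 to 2.07 CPM in IgG and 18.9 to 23.2 in DN1, against 1170 to 1622 in DN2a and 1728 to 2175 in DN2b. Kit was at 319 to 368 CPM in DN1, 173 to 212 in DN2a and 130 to 176 in DN2b. Its DN2a and DN2b ranges overlapped, and it was lower in DN2a than in DN1 although both were sorted as KIT++. Cd44 was at 116 to 159, 44.3 to 54.2 and 10.9 to 13.5 CPM, lower in DN2a than in DN1 although both were sorted as CD44+. The summed CPM of 8 T lineage markers was 1.96 to 8.76 in IgG, with Cd3e at 0 in all 4 libraries, 329 to 457 in DN1, 1451 to 1893 in DN2a and 2594 to 3860 in DN2b. Neutrophil and monocyte markers, of which 7 of 8 were listed, summed to 25311 to 75735 CPM in IgG. Replicate 1 of DN1 stood apart from replicate 2: these myeloid markers summed to 2443 against 108 CPM, 6 mast cell markers to 2182 against 571, and 6 NK and innate lymphoid markers to 2103 against 399. In DN2a and DN2b the myeloid sum was 2.94 to 8.98 CPM, with Elane and Ngp at 0 in both DN2b libraries. The mast cell sum was 378 to 573 CPM in DN2a and 257 to 455 in DN2b. Of these markers 3 were at 1 CPM or more by group mean in DN2a and 1 in DN2b. The NK and innate lymphoid sum was 524 to 674 CPM in DN2a and 316 to 349 in DN2b, so RNA of these 2 lists was not particular to DN1. In RNA from many cells, fewer cells of a type and less RNA per cell cannot be told apart. Calls of the 10 genes that rest on DN1 are given with and without each of its libraries.

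The sequences below show where the consensus that STAT proteins bind, TTCNNNGAA, lay near the annotated starts. RefSeq promoter windows of the GRCm38.p6 assembly, from 250 bases before to 50 bases after each start, matched 9 of the 10 genes by symbol, all but Socs2. The consensus reads the same on both strands apart from its middle bases, and a search of both strands found it in 2 of the 12 windows of these genes, against 2726 of 32851 windows of all genes (8.3%). The 2 genes were Cish, with 2 copies at bases 1 to 9 and 12 to 20 after its start, and Socs3, with 1 copy at bases -154 to -146. A match is only a match of letters. Each is shown 5′ to 3′ on the strand of the gene with the matches in capitals, together with the stretch before the start of Socs1, in which the letters do not occur.
Cish, chr9:107296654-107296683, plus strand, bases -5 to 25: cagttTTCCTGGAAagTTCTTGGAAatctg
Socs3, chr11:117969496-117969525, minus strand, bases -159 to -130: cagccTTCTTAGAAgggaggggggggaaag
Socs1, chr16:10785537-10785786, minus strand, bases -250 to -1: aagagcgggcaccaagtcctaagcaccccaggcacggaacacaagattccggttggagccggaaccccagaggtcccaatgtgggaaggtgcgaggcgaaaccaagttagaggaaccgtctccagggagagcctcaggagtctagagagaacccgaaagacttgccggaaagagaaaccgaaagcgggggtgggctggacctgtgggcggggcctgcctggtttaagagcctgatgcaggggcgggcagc

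Among the 10 genes, the feedback genes Cish, Socs2 and Socs1 differed most between DN1 and the DN2 stages. All 3 were low in DN1 and high in DN2b, whereas Jak1, Jak3, Stat5a and Stat5b, which carry the signal, passed the test in none of the 7 comparisons made with all libraries. Socs3 was highest in the IgG cultures. Pim2 was higher in both DN2 stages than in IgG, and Pim1 passed no test.

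**Figure D1:**
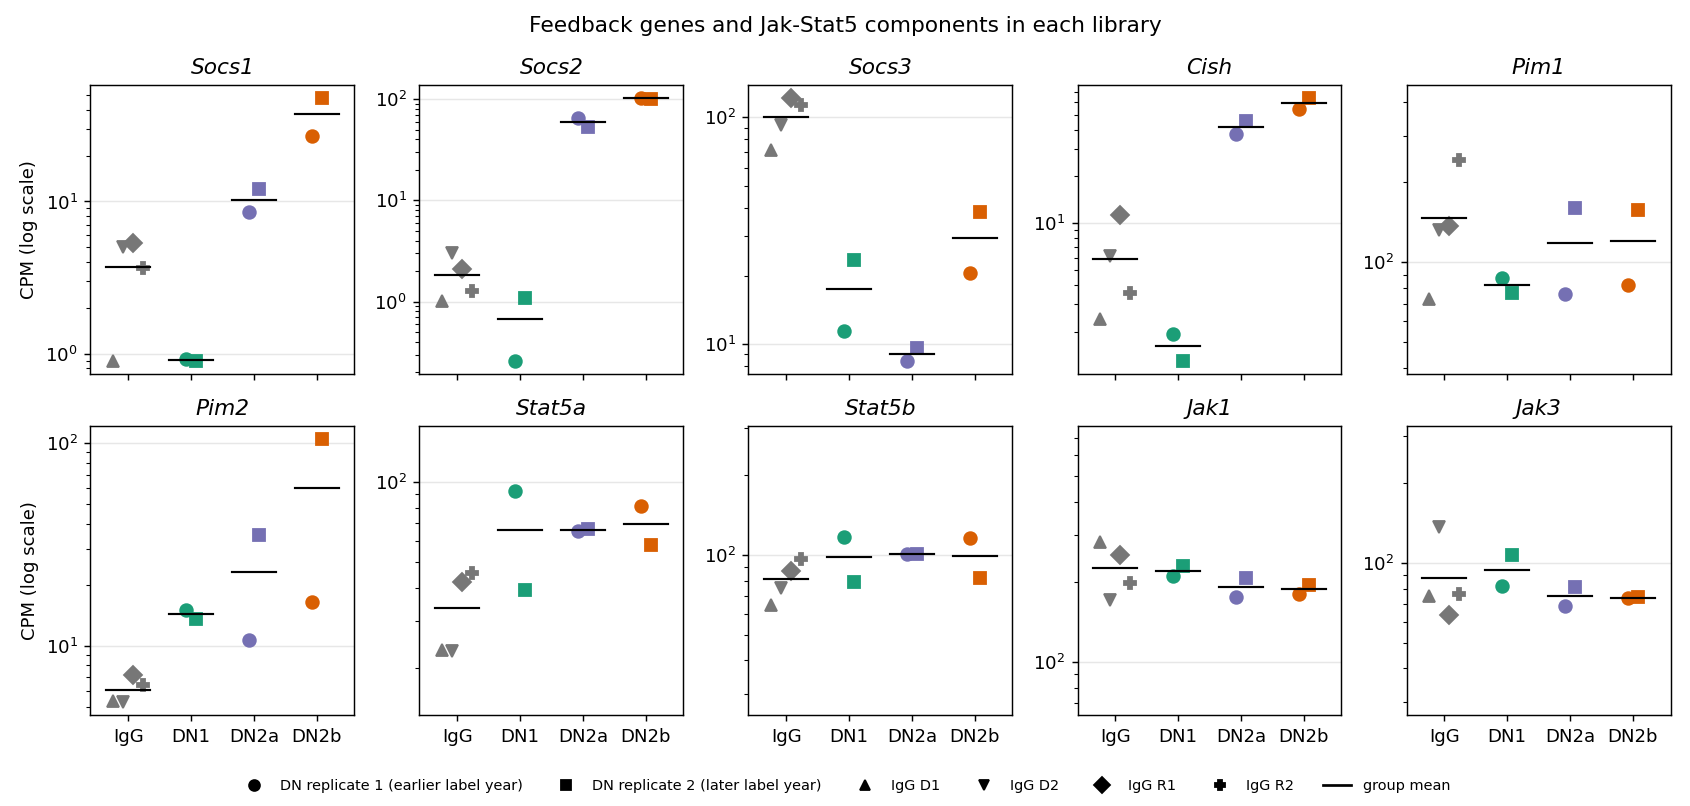
CPM of each of the 10 genes (vertical axis, log scale, its own range in each panel) in the 4 IgG, 2 DN1, 2 DN2a and 2 DN2b libraries, with 1 point per library, shapes for the labelled library and black lines for group means. Socs1, Socs2 and Cish are lowest in DN1 and highest in DN2b by group mean, Socs3 is highest in IgG, and replicate 2 lies above replicate 1 for Pim1 and Pim2 in DN2a and DN2b.

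Socs2 encodes a suppressor of cytokine and growth hormone signalling that is itself a classical STAT5 target. Its level in replicates 1 and 2 was 0.259 and 1.10 CPM for DN1, 65.8 and 53.4 for DN2a, and 102.4 and 101.3 for DN2b. In IgG it was 1.01 CPM in D1, 2.997 in D2, 2.11 in R1 and 1.28 in R2. Every DN2 library was thus far above every DN1 and IgG library, DN1 and IgG overlapped, and the DN1 values rest on 7 and 22 reads. Against DN1, Socs2 was higher by 6.49 on the log2 scale in DN2a (SE 0.73, adjusted p = 0.015, edgeR) and by 7.27 in DN2b (SE 0.75, adjusted p = 0.0034), which are 90.1-fold and 154-fold.

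Cish encodes the cytokine-inducible SH2 protein, which binds activated receptors and competes with STAT5 for them. Replicates 1 and 2 were at 1.93 and 1.30 CPM for DN1, 37.6 and 45.3 for DN2a, and 54.2 and 63.9 for DN2b. The IgG libraries were at 2.41, 6.13, 11.2 and 3.57 CPM for D1, D2, R1 and R2. The DN1 libraries were the lowest of all 10 and the 4 DN2 libraries the highest, with no overlap between DN1, IgG and DN2. Cish was higher than in DN1 by 4.67 in DN2a (log2, SE 0.71, adjusted p = 0.0408, edgeR) and by 5.18 in DN2b (SE 0.72, adjusted p = 0.0111), or 25.5-fold and 36.3-fold.

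Socs1 encodes an inhibitor that binds the kinase domain of the Jaks. Replicates 1 and 2 were at 0.927 and 0.897 CPM for DN1, 8.55 and 12.0 for DN2a, and 27.1 and 47.8 for DN2b. IgG D1 was at 0.896 CPM, as low as DN1, while D2, R1 and R2 were at 5.03, 5.34 and 3.66. The 3 stages lay in order without overlap, and IgG overlapped DN1 only. Socs1 was higher in DN2b than in DN1 by 5.35 (log2, SE 0.81, adjusted p = 0.0156, edgeR), or 40.8-fold. The difference of 3.49 between DN2a and DN1 (SE 0.75, 95% interval 1.79 to 5.18) did not pass the test (adjusted p = 0.112).

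These were the only members called against DN1. In DN2a, 2 of 10 members were called higher and 0 lower, where 0.196% of all genes tested were called higher and 0.205% lower. At an unadjusted p under 0.05 there were 3 members higher and 1 lower, Socs3, beside 10.9% of all genes, and DESeq2 called 3. In DN2b, 3 of 10 were higher and 0 lower, against 1.01% and 0.892% of all genes, with 4 higher and 0 lower at an unadjusted p under 0.05 (13.9% of all genes) and 3 called by DESeq2. With both DN2 stages averaged, the same 3 genes were called higher and 0 lower, against 0.957% and 2.09%: Socs2 by 6.88 (log2, adjusted p = 0.0033), Cish by 4.93 (adjusted p = 0.0082) and Socs1 by 4.42 (adjusted p = 0.0199, edgeR). The study placed Socs1, Socs2 and Cish on a list of promoters chosen in part from these same libraries, by expression in DN2b over control and DN1, so their rise in DN2b is not independent evidence of its direction. DN2a was not used in that choice but was compared with the same DN1 libraries.

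For Socs1, Socs2 and Cish every DN2 library lay above every DN1 library. The direction within each label year was thereby fixed and adds no support, and only the ratios are of use. In the earlier year, replicate 1, the DN2b to DN1 ratio of CPM was 29.2 for Socs1, 395 for Socs2 and 28.1 for Cish, and in the later year, replicate 2, it was 53.3, 92.4 and 49.3. The DN2a to DN1 ratios were 9.23, 253 and 19.5 in the earlier year and 13.4, 48.7 and 34.9 in the later. Without replicate 1 of DN1, in which markers of other cells were high, only Socs2 kept its call in DN2b over DN1 (6.53, adjusted p = 0.0176 of a range of 3.5e-26 to 0.0294 over the alternatives). Socs1 was then at 5.38 and Cish at 5.50 on the log2 scale, as large as before, with adjusted p of 0.1254 and 0.0739, the highest over their alternatives. Of all genes 56 were then called in that comparison, against 233 with both DN1 libraries and 383 without replicate 2. Without replicate 2, Socs2 and Cish were called and Socs1 was at 5.33 with an adjusted p of 0.0503. The Socs1 call was also lost without replicate 2 of DN2b (4.88, adjusted p = 0.0667). In DN2a over DN1, no member was called without replicate 1 of DN1 or without either DN2a library, and Socs2 alone was called without replicate 2 of DN1 (7.81, adjusted p = 0.0052). Of the 10 fits that each left out 1 library, Socs2 was called in 7 and Cish in 2, the call of Cish being lost also without replicate 2 of DN1, either DN2b library, IgG D2 or IgG R2 (adjusted p from 0.0535 to 0.0667). In that comparison Socs1, Socs2 and Cish were all called by DESeq2, and the log2 values stayed within 3.22 to 3.72 for Socs1, 5.76 to 7.81 for Socs2 and 4.42 to 4.99 for Cish. With both DN2 stages averaged, Socs2 was called in 10 of those 10 fits, Cish in 9 and Socs1 in 6. Cish was lost without replicate 1 of DN1 (5.25, adjusted p = 0.0787). Socs1 was lost without replicate 1 of DN1 (4.44, adjusted p = 0.177), replicate 2 of DN1 (4.40, adjusted p = 0.0561) or either DN2a library (4.55 and 4.29, adjusted p = 0.0594 and 0.0543).

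Between DN2b and DN2a, both from cultures with IL-7, no member was called, and neither was any other gene, 0% in either direction by edgeR. At an unadjusted p under 0.05 there were 2 members, against 335 genes (2.74%), and DESeq2 called 0 members and 29 genes. The 2 were Socs3, higher in DN2b by 1.71 (log2, 95% interval 0.74 to 2.67), and Socs1, by 1.87 (95% interval 0.32 to 3.42), both with an adjusted p of 1. Socs2 was higher by 0.77 (95% interval -0.48 to 2.03) and Cish by 0.51 (95% interval -0.83 to 1.85), intervals that hold 0.

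**Figure D2:**
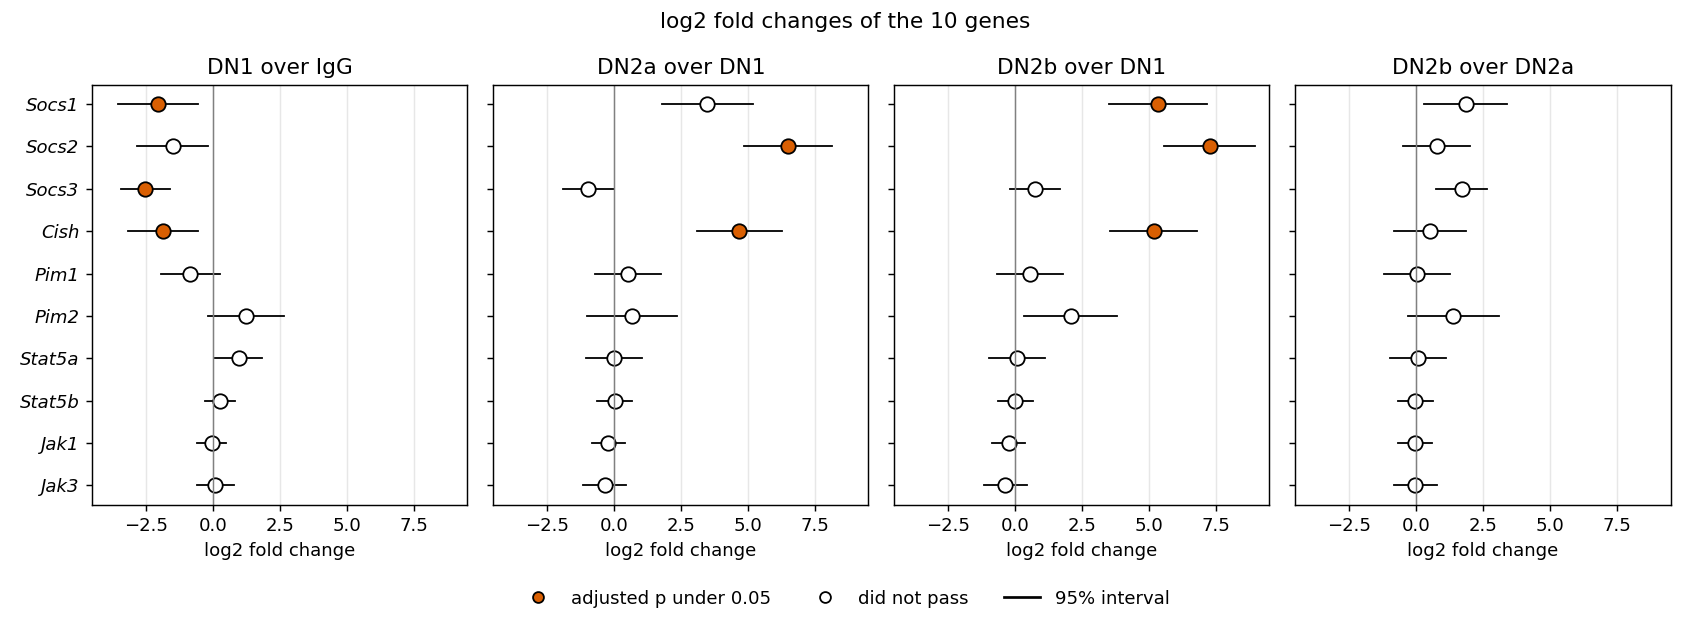
log2 fold change (horizontal axis) of each gene in 4 comparisons, with 95% intervals as lines and filled circles where the adjusted p of edgeR's quasi-likelihood test was under 0.05. Socs1, Socs3 and Cish are filled to the left in DN1 over IgG, Socs2 and Cish to the right in DN2a over DN1, Socs1, Socs2 and Cish to the right in DN2b over DN1, and none in DN2b over DN2a.

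The IgG cultures had neither Delta1 nor IL-7. Compared with them, DN1 cells had less RNA of Socs3, while the calls of Socs1 and Cish as lower were weak. Socs3 was lower by 2.52 on the log2 scale (SE 0.41, adjusted p = 0.0026, edgeR), Socs1 by 2.03 (SE 0.67, adjusted p = 0.0445) and Cish by 1.85 (SE 0.59, adjusted p = 0.0397). The 3 members called lower and 0 called higher stand beside 17% and 14.3% of all genes. At an unadjusted p under 0.05 there were 4 lower and 1 higher, Stat5a, where 43.5% of all genes passed that limit, and DESeq2 called 4. Socs2, at -1.49 (SE 0.59), did not pass (adjusted p = 0.0821), and was at -0.75 without replicate 1 of DN1 (adjusted p = 0.369) and called at -2.80 without replicate 2 (adjusted p = 0.0337). The Socs3 call held without either (-2.09 and -3.12). The Socs1 and Cish calls were close to the threshold: with library sizes unscaled only Socs3 was called, and Socs1 kept its call in 1 and Cish in 2 of the 10 fits that each left out 1 library. Both were lost without replicate 1 of DN1 (Socs1 -2.06, adjusted p = 0.149, and Cish -2.17, adjusted p = 0.0963) and without replicate 2 (-2.00, adjusted p = 0.173, and -1.59, adjusted p = 0.198).

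Socs3 encodes an inhibitor that binds gp130 and the Jaks and limits signalling by IL-6 and G-CSF. Its level was 71.8, 92.7, 121.7 and 113.7 CPM in IgG D1, D2, R1 and R2. Replicates 1 and 2 were at 11.4 and 23.5 CPM for DN1, 8.41 and 9.57 for DN2a, and 20.5 and 38.1 for DN2b. All 4 IgG libraries lay above all 6 DN libraries, DN2a lay below the other DN stages, and DN1 and DN2b overlapped. Socs3 was lower than in IgG by 3.48 in DN2a (SE 0.43, adjusted p = 0.00049, edgeR) and by 1.77 in DN2b (SE 0.39, adjusted p = 0.0066). The call in DN2b was lost without replicate 1 of DN2b (-1.39, adjusted p = 0.0677, the highest of a range from 5.6e-05). Against DN1, Socs3 was at -0.96 in DN2a (adjusted p = 0.455) and 0.75 in DN2b (adjusted p = 0.487). Whether it differed in this from Socs1, Socs2 and Cish was not tested.

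The Socs3 level moved with the markers of myeloid cells between IgG and the DN groups. The 7 neutrophil and monocyte markers were all above 1 CPM by group mean in IgG and in DN1, 2 were in DN2a and 1 in DN2b. S100a8 was at 3987 to 12006 CPM in IgG and at 0 to 0.0796 in DN2b. The part of these cells in the Socs3 difference was not tested. Among the DN groups, the DN1 library with more myeloid marker RNA, replicate 1, had the lower Socs3 level (11.4 against 23.5 CPM), a comparison of single libraries. DN2b had less of this RNA than DN2a and more Socs3, but the marker sums were only 2.94 to 8.98 CPM there, with some markers at 0. No conclusion on the part of these cells is drawn from either.

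In DN2a, 3 members were called higher than in IgG and 1 lower, beside 21.2% and 24.3% of all genes. Those higher were Socs2 by 5.00 (log2, SE 0.50, adjusted p = 0.00019), Cish by 2.82 (SE 0.50, adjusted p = 0.0023) and Pim2 by 1.92 (SE 0.62, adjusted p = 0.0312, edgeR). Socs1, at 1.45 (SE 0.56), did not pass (adjusted p = 0.0597), although its DN2a libraries lay above all 4 IgG libraries. In DN2b, 4 were higher and 1 lower, beside 19.9% and 22.5%. Socs2 was higher by 5.78 (SE 0.51, adjusted p = 9.8e-05), Cish by 3.33 (SE 0.51, adjusted p = 0.0012), Socs1 by 3.32 (SE 0.56, adjusted p = 0.0020) and Pim2 by 3.32 (SE 0.63, adjusted p = 0.0033, edgeR). The comparisons with IgG share its 4 libraries, and those with DN1 share its 2. The IgG labels give no year, so the time of collection and the group cannot be told apart in the comparisons with IgG. DN2 cells also came from cultures kept beyond day 14, when IL-7 was added, whereas IgG was harvested on that day.

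Pim2 encodes a serine-threonine kinase that promotes survival and is induced by Stat5. It was at 5.32, 5.26, 7.19 and 6.40 CPM in IgG D1, D2, R1 and R2 and at 15.1 and 13.5 in replicates 1 and 2 of DN1. The same replicates were at 10.7 and 35.4 CPM for DN2a and at 16.4 and 104.4 for DN2b. Every DN library was above every IgG library, but the 2 libraries of a DN2 stage differed more from each other than replicate 1 did from DN1. The ratio of replicate 2 to replicate 1 was 3.31 in DN2a, 6.36 in DN2b and 0.895 in DN1. Over IgG, Pim2 was at 1.24 in DN1 (log2, adjusted p = 0.1605, edgeR). Over DN1, it was at 2.08 in DN2b (log2, SE 0.77, adjusted p = 0.258, edgeR), and within the years the DN2b to DN1 ratio was 1.09 in the earlier and 7.73 in the later. Its calls over IgG were lost without replicate 2 of the stage, at 0.82 in DN2a (adjusted p = 0.415, the highest of a range from 0.0072) and at 1.45 in DN2b (adjusted p = 0.0722, the highest of a range from 5.2e-06). In DN2a the call was also lost without any of the 4 IgG libraries, with the log2 value between 1.86 and 2.01.

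Pim1 encodes the founding kinase of that family, also a target of Jak-Stat signals. It was at 72.9, 132.9, 136.8 and 242.5 CPM in IgG D1, D2, R1 and R2. Replicates 1 and 2 were at 87.0 and 76.8 CPM for DN1, 76.1 and 159.8 for DN2a, and 82.2 and 157.9 for DN2b. The IgG libraries spanned the whole range of the others. In DN2a and DN2b replicate 2 was again above replicate 1, by ratios of 2.10 and 1.92, while in DN1 the ratio was 0.884. With both DN2 stages averaged Pim1 was at 0.54 over DN1 (log2, 95% interval -0.55 to 1.63, adjusted p = 0.641), an interval that does not exclude a doubling. Its sign against IgG, -0.31 in DN2a and -0.29 in DN2b, turned when only IgG D1 and D2 were used.

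Stat5a and Stat5b encode the transcription factors that these receptors activate by phosphorylation. Stat5a was at 23.3, 23.2, 42.0 and 45.4 CPM in IgG D1, D2, R1 and R2. Replicates 1 and 2 were at 92.6 and 39.2 CPM for DN1, 65.7 and 66.6 for DN2a, and 81.3 and 57.7 for DN2b. Every DN2 library was above every IgG library, the DN1 libraries lay on either side of DN2, and none of the differences from IgG passed: 0.98 in DN1 (adjusted p = 0.0841), 0.98 in DN2a (adjusted p = 0.0651) and 1.05 in DN2b (adjusted p = 0.0540, edgeR). These lay near the threshold: Stat5a was called in 5 of 17 alternatives in DN2a, in 5 of 17 in DN2b and in 2 of 17 in DN1. Its value in DN1 was 0.23 without replicate 1 of DN1 (adjusted p = 0.721) and 1.47 without replicate 2 (adjusted p = 0.0392). Over DN1 Stat5a was at 0.04 with both DN2 stages averaged (log2, 95% interval -0.86 to 0.94), and its DN2b to DN1 ratio was 0.878 in the earlier year and 1.47 in the later.

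Stat5b was at 64.8, 74.9, 86.6 and 96.6 CPM in the IgG libraries in the same order. It was at 116.8 and 78.7 CPM for DN1, 100.9 and 100.7 for DN2a, and 115.9 and 82.0 for DN2b. Its groups overlapped except for DN2a and IgG, and with both DN2 stages averaged it was at 0.03 over DN1 (log2, 95% interval -0.53 to 0.60). The coding parts of Stat5a and Stat5b are alike: 13.9% of the 36-base windows of the Stat5b exons occur also in Stat5a exons, and 10.5% of those of Stat5a in Stat5b, so some reads may be lost from both or shared. Reads of 36 bases were used. The signs of both genes over DN1 turned when library sizes were left unscaled, which moved the median of all genes over DN1 to -0.22 in DN2a and -0.21 in DN2b from -0.03 and -0.02, and in DN1 over IgG to 0.27 from 0.01.

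Jak1 and Jak3 encode the kinases bound to the IL-7 receptor alpha chain and the common gamma chain. Jak1 was at 284.1, 171.4, 253.4 and 198.4 CPM in IgG D1, D2, R1 and R2, and at 211.9 and 229.6 for DN1, 175.5 and 207.6 for DN2a, and 180.2 and 195.6 for DN2b. Both DN1 libraries were above all 4 DN2 libraries, but the difference was small, -0.22 for both DN2 stages over DN1 (log2, 95% interval -0.75 to 0.32, adjusted p = 0.712, edgeR). Jak3 was at 74.9, 136.6, 63.7 and 76.3 CPM in the IgG libraries, and at 81.7 and 106.7 for DN1, 68.6 and 81.1 for DN2a, and 73.5 and 74.4 for DN2b. IgG D2 was the highest of the 10 libraries, and the others lay between 63.7 and 107. Over DN1 Jak3 was at -0.34 (95% interval -1.02 to 0.34, adjusted p = 0.639). These intervals leave room for changes of up to about 2-fold.

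Per kilobase of annotated exon, a scale on which genes can be compared, the Jaks and Stat5 genes lay above the inhibitors by group mean in DN1. Jak1 was at 30.5 ± 1.73 CPM per kilobase there (SD, n = 2), Pim1 at 24.4 ± 2.13, Stat5b at 17.7 ± 4.86, Jak3 at 17.6 ± 3.30, Stat5a at 9.24 ± 5.29, Socs3 at 6.03 ± 2.95 and Pim2 at 5.11 ± 0.401. Socs1, Cish and Socs2 were at 0.314 ± 0.00725, 0.251 ± 0.0696 and 0.0711 ± 0.0621. Stat5b and Jak3 did not differ beyond their spread, nor did Stat5a, Socs3 and Pim2, nor Socs1 and Cish.

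In DN2b the group means of the inhibitors lay close to that of Stat5a. Pim1 was at 35.7 ± 15.9 CPM per kilobase (SD, n = 2), Jak1 at 26.0 ± 1.51, Pim2 at 21.6 ± 22.3, Stat5b at 17.9 ± 4.33 and Jak3 at 13.8 ± 0.121. Socs1 was at 12.9 ± 5.05, Socs2 at 10.7 ± 0.079, Socs3 at 10.15 ± 4.30, Stat5a at 9.74 ± 2.34 and Cish at 9.20 ± 1.07. Pim1, Jak1, Pim2, Stat5b and Jak3 did not differ from their neighbours in this order beyond the larger SD. Socs1, Socs3 and Stat5a did not differ beyond their spread from the rest of the last 5, and Socs2 exceeded Cish by more than either SD. The divisor is the length of all annotated exons together, which overstates the length of the RNA for genes with alternative exons, such as Socs2 and Cish, and so understates their level.

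The genes lie apart from each other except for the Stat5 pair. In the GENCODE annotation of mm10, Stat5a spans chr11:100859351-100885169 on the plus strand and Stat5b chr11:100780731-100850724 on the minus strand. Socs1 lies at chr16:10782240-10785536, Socs2 at chr10:95385362-95417180, Socs3 at chr11:117966079-117970047 and Cish at chr9:107296026-107302784. For Cish and Socs3 this annotation begins before the RefSeq start used above, so the matches shown lie within the annotated gene. Some exons are shared with other genes: Jak3 with Insl3 on the same strand, Cish with Gm17040 and Gm17041, Pim1 with Gm26885, Stat5a with Stat3 and Jak1 with Raver2 on the other strand. The library kit keeps the strand, but whether reads were counted by strand is not given in the sources used here, so reads of these pairs may not be told apart.

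The rest of the pathway was described by lists of named genes. No other Jak or Stat gene passed edgeR's test between DN1 and the averaged DN2 stages, 0 of 7 tested, with 0 at an unadjusted p under 0.05 and 0 by DESeq2. Their median log2 change was -0.14 against -0.02 for all genes. No other Socs gene or Pim3 passed edgeR's test in any of the 7 comparisons, 0 of 5. At an unadjusted p under 0.05 there were 3 of them in DN2a over IgG, 1 in DN2b over IgG, 1 in DN1 over IgG and 0 in the other 4 comparisons, where 53.9%, 52.2% and 43.5% of all genes were under that limit in the comparisons with IgG. DESeq2 called only Socs6 and Socs7, both lower in DN2a than in IgG. Socs4, Socs5, Socs6, Socs7 and Pim3 lay between -0.27 and 0.16 with both DN2 stages averaged over DN1. Socs4 to Socs7 are family members less closely tied to cytokine induction. Of 12 other negative regulators, 1 fell and none rose, beside 2.09% of all genes lower and 0.957% higher, with a median of 0.00: Sh2b3, the adaptor LNK that restrains KIT and JAK2 signalling, went from 29.3 ± 3.23 CPM in DN1 to 13.4 ± 1.38 in DN2a and 11.3 ± 2.64 in DN2b (SD, n = 2; log2 -1.25, adjusted p = 0.0437, edgeR). The call was lost without replicate 1 of DN1 (-1.13, adjusted p = 0.340) and without replicate 2 (-1.35, adjusted p = 0.0602). The others include phosphatases of Jaks and Stats, and Ptpn2, at 0.68, did not pass (adjusted p = 0.140). DESeq2 called 1 of the 12 higher, Ptpn2, and 2 lower, Sh2b3 and Ptpn6.

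**Figure D3:**
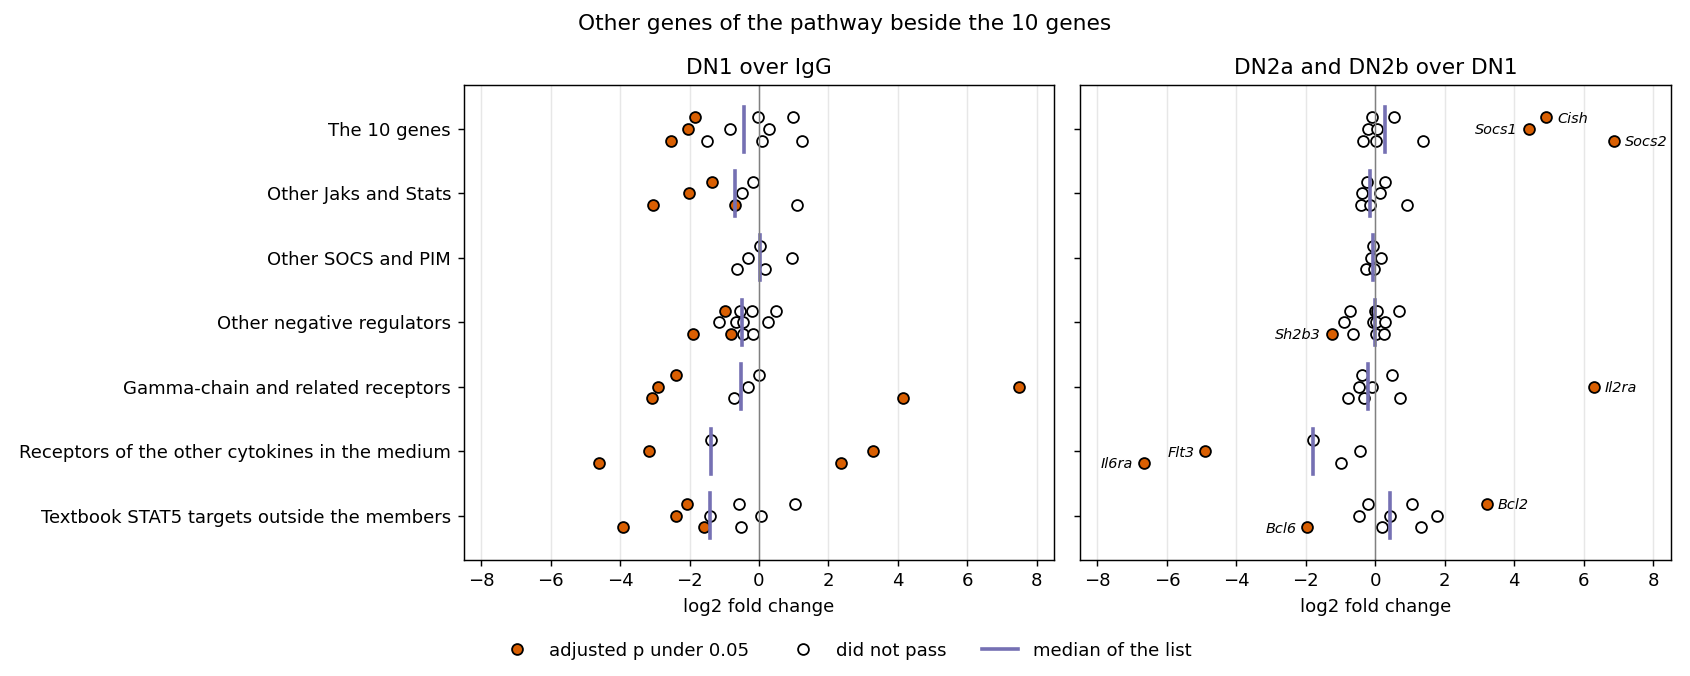
log2 fold change (horizontal axis) of every gene tested in the 10 genes and in 6 lists of related genes, for DN1 over IgG and for the mean of DN2a and DN2b over DN1, with 1 circle per gene, filled where the adjusted p was under 0.05, spread vertically for legibility, and a bar at the median of the list. Against DN1 the filled circles on the right are Socs1, Socs2, Cish, Il2ra and Bcl2, and those on the left Sh2b3, Il6ra, Flt3 and Bcl6.

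Of the 9 receptor genes of the common gamma chain family and its relatives, 8 were tested, and 1 rose and 0 fell from DN1 to the averaged DN2 stages, beside 0.957% and 2.09% of all genes, with a median of -0.20. The 1 was Il2ra, the gene of the sorting marker CD25 and itself a STAT5 target, at 6.29 (log2, adjusted p = 0.0049, edgeR), which the sort had fixed. It was at 6.45 without replicate 1 of DN1 (adjusted p = 0.0509) and at 6.15 without replicate 2 (adjusted p = 0.0162). Il7r, the IL-7 receptor alpha chain, was at 14.7 ± 9.58 CPM for DN1, 16.2 ± 5.97 for DN2a and 35.1 ± 5.92 for DN2b (SD, n = 2), and did not pass (0.71, adjusted p = 0.721). In IgG it was at 40.0 to 305 CPM, above both DN1 libraries (-3.07 in DN1 over IgG, adjusted p = 0.0288). That call was lost without replicate 1 of DN1 (-2.52, adjusted p = 0.146) and without replicate 2 (-3.95, adjusted p = 0.0728). Il2rg, the common gamma chain, was at 185 ± 37.2 CPM in IgG (n = 4) and at 185 ± 3.79 for DN1, 145 ± 14.9 for DN2a and 207 ± 15.4 for DN2b.

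Of the 5 receptor genes for the other cytokines in the medium, 2 fell and 0 rose from DN1 to DN2, beside 2.09% and 0.957% of all genes, with a median of -1.81. Flt3, the receptor of FLT-3 ligand, fell from 20.2 and 90.0 CPM in DN1 to 0.895 to 1.41 in DN2a and 1.27 to 4.78 in DN2b (log2 -4.90, adjusted p = 0.0068, edgeR). Il6ra, the IL-6 receptor alpha chain, was at 20.7 to 77.9 CPM in IgG, 1.15 and 2.48 in DN1, 0 and 0.148 in DN2a and 0 in both DN2b libraries, and was called lower in DN2 than in DN1 (adjusted p = 0.0257). Without replicate 1 of DN1 Flt3 was still called (-5.60, adjusted p = 0.0133) and Il6ra was not (adjusted p = 0.187), and without replicate 2 both were (-3.44, adjusted p = 0.0175, and adjusted p = 0.0233). Its partner Il6st, which encodes gp130, was at 58.4 to 124 CPM in IgG and 4.23 to 14.4 in DN1 (log2 -3.17, adjusted p = 0.0063), and was called without either DN1 library (-2.53 and -4.30). Flt3, at 4.25 to 7.47 CPM in IgG, was higher in DN1 (3.28, adjusted p = 0.0045), a call lost without replicate 2 of DN1 (1.84, adjusted p = 0.0800). Of these 5 genes 2 were thus lower in DN1 than in IgG and 2 higher, the other being Kit, whose product was a sorting marker (2.36, adjusted p = 0.0098), beside 17% and 14.3% of all genes. Of the 8 gamma chain family receptors, Il7r, Il4ra and Il21r were lower in DN1 than in IgG and Il2ra and Il9r higher. The call of Il4ra, like that of Il7r, was lost without replicate 1 of DN1. Il6ra and Il6st were thus highest in the same 4 libraries as Socs3, and so were the myeloid markers.

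Of 9 other textbook STAT5 targets, 1 rose and 1 fell from DN1 to DN2, beside 0.957% and 2.09% of all genes, with a median of 0.43. Bcl2, which protects lymphocytes from apoptosis, rose from 7.22 and 12.9 CPM in DN1 to 71.1 and 71.9 in DN2a and 110.3 and 131.6 in DN2b (log2 3.21, SE 0.34, adjusted p = 0.0034, edgeR). Bcl6, a repressor that STAT5 can lower, fell from 13.1 ± 0.697 to 3.35 ± 1.55 and 3.48 ± 2.28 CPM (SD, n = 2; log2 -1.96, adjusted p = 0.0412). Bcl2 was called without replicate 1 of DN1 (3.69, adjusted p = 0.0148) and without replicate 2 (2.85, adjusted p = 0.0061), and the call of Bcl6 was lost without replicate 1 (-1.90, adjusted p = 0.259) or replicate 2 of DN1 (-2.01, adjusted p = 0.0668). Bcl2l1, Id1 and Osm, at 1.31, 1.79 and 1.06, did not pass (adjusted p = 0.105, 0.0660 and 0.348). DESeq2 called 3 of the 9 higher, Bcl2, Bcl2l1 and Id1, and 1 lower, Bcl6. Mcl1, Myc, Ccnd2 and Ccnd3 were between -0.47 and 0.43.

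Against IgG, 4 of the 7 other Jak and Stat genes were lower in DN1 and 0 higher, with a median of -0.68 against 0.01 for all genes, led by Stat2 at -3.06 (log2, adjusted p = 0.0016, edgeR). Stat4, a transducer of IL-12 signals in T and NK cells, was higher than in IgG by 1.92 in DN2a (adjusted p = 0.0075) and by 2.10 in DN2b (adjusted p = 0.0055), the 1 of the 7 that was higher in those stages, where 5 were lower, beside 21.2% of all genes higher and 24.3% lower in DN2a and 19.9% and 22.5% in DN2b. In DN1 over IgG, 3 of the 7 were called lower without replicate 1 of DN1 and 1 without replicate 2. Of the other negative regulators 3 of 12 were lower in DN1 than in IgG and 0 higher, led by Ptpn1 at -1.91 (adjusted p = 0.0022). Of the other STAT5 targets 4 of 9 were lower and 0 higher, led by Id1 at -3.92 (adjusted p = 0.00085) and Bcl2l1 at -2.39 (adjusted p = 0.0027). Without replicate 1 of DN1 these counts were 2 of 12 and 4 of 9, and without replicate 2 they were 2 of 12 and 3 of 9, with Ptpn1, Id1 and Bcl2l1 called in each. Of all genes 1426 of 12121 were lower in the first of these fits and 1042 of 12070 in the second. With all libraries, the counts stand beside 17% of all genes lower in DN1 and 14.3% higher, and the myeloid markers differed as above.

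The 3 feedback genes had similar profiles over the groups. Over the 10 libraries, Pearson's r of log2(CPM + 1) was 0.964 between Socs2 and Cish, 0.941 between Socs1 and Cish and 0.905 between Socs1 and Socs2, while that of Socs3 with them was -0.476 to -0.149. Stat5a and Stat5b had an r of 0.918. The 10 genes were left out of the next ranking. Among all other genes tested with a mean of at least 5 CPM, those most like Socs2 were Khdc1a (0.982), Stxbp6 (0.981) and Fam169b (0.980). In that set, most like Cish were Plxdc2 (0.976), Rasgrp1 (0.928) and Gbp8 (0.927), and most like Socs1 Pex6 (0.927), Gbp8 (0.920) and Tnfrsf9 (0.918). Socs3 was most like Stambpl1 (0.982), Dusp22 (0.9747) and Evi5 (0.970), and Pim1 most like Cth (0.885), Eno1 (0.876) and Dlg4 (0.864). The 10 libraries fall into 4 groups, so these values describe mainly the group means, and they carry no test. Between the 2 replicates of each DN stage, Socs2 and Cish differed in opposite directions. For Socs2, however, the ratio of replicate 2 to replicate 1 was 0.990 in DN2b, and the DN1 values rest on 7 and 22 reads.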

How the data were processed

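RNA from 10 libraries was measured. Per the labels and the study's methods, the authors prepared stranded total RNA libraries, aligned the first 36 bases of read 1 to mm10 with TopHat and counted reads per gene with HTSeq (0.6.1p1, intersection-strict); the deposited values are raw counts. The submitters' processing notes also name Cufflinks (2.2.1). By the study's methods, replicates came from independent LSK isolates. What D and R mean in the IgG labels is not given in the sources used here. The 4 IgG libraries were treated as replicates, and any pairing among them was not modelled. The 5 summary lines of each file (20.5 to 41.0% of reads) were dropped, so that repeated sequence is counted low. Here edgeR (4.0.16, R 4.3.3) was run: TMM factors, genes with 1 CPM or more in 2 or more libraries, and 1 quasi-likelihood fit of 4 groups over all 10 libraries, which lets every DN stage borrow the spread of the IgG libraries. CPM were computed with TMM factors of 0.858 to 1.19. Fold changes used a prior count of 0.125. The study names no test for fold changes. The script was tested on simulated data. Alternatives were DESeq2 (1.42.0), library sizes unscaled, no filter or filterByExpr, fewer groups, fewer IgG libraries, each library left out, and the label year as a block.

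The 10 genes, the pathway lists and the marker lists were chosen with earlier results of these data known. All 10 genes were tested in every comparison. From each pathway list the genes that passed are named, at most 4 per comparison by size, with others named for their role after their values were seen, and 1 gene that passed is not reported here. The genes of most similar pattern are the 3 with the highest r outside the 10 genes. Same-year libraries of DN2a and DN2b deviated together (r = 0.452 over 12221 genes, 2 pairs), those of DN1 and DN2a hardly (0.0629) and of DN1 and DN2b weakly (0.189). DN2a and DN2b share a label date within each year and DN1 does not. Promoter sequences are from RefSeq (GRCm38.p6). Counting error and the spread between 2 libraries limit the precision of every DN value.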

Additional observations from a re-analysis of the deposited data

How the results depend on the processing

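None of the 20 called log2 fold changes of the 10 genes changed sign in any alternative, and of 1190 alternative values of the 70 fold changes 51 did, all of fold changes that had not passed. The number of members called kept within 1.5 times in every alternative for DN2a over IgG, DN2b over IgG and DN2b over DN2a. In DN1 over IgG it fell from 3 to 1 with library sizes unscaled, and leaving out 1 library gave 1 to 3. Leaving out 1 library gave 0 to 3 for DN2a over DN1 (2 with all), and 1 to 3 for DN2b over DN1 and for both DN2 stages over DN1 (3 with all). Blocking the DN libraries by label year, a replicate block of 2 pairs, gave 3 members in DN2a over DN1, 3 in DN2b over DN1, 3 in both over DN1 and 0 in DN2b over DN2a, and the same 6 libraries without the block also gave 3, 3, 3 and 0. All genes called in DN2a over DN1 were 49 with all libraries, 25 with only those groups, 101 without a filter and 473 by DESeq2, in DN2b over DN1 233, 80, 282 and 821, and in both over DN1 372, 239, 495 and 972. The split of higher and lower calls was 1753 and 2081 in DN1 over IgG against 2585 and 1627 with library sizes unscaled, 24 and 25 in DN2a over DN1 against 125 and 348 by DESeq2, and 124 and 109 in DN2b over DN1 against 104 and 137 unscaled and 339 and 482 by DESeq2. In both over DN1 it was 117 and 255 against 122 and 117 with only those groups, and 18 and 44 without replicate 1 of DN1. The cause of these differences was not tested, beyond the smaller number of libraries in some fits.

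Signs turned as follows (log2). With library sizes unscaled, Jak1 in DN1 over IgG was 0.23, Stat5a over DN1 was -0.22 in DN2a, -0.15 in DN2b and -0.18 in both, and Stat5b -0.17, -0.19 and -0.18. Against IgG D1 and D2 alone, Jak3 in DN1 was -0.20 and Pim1 0.15 in DN2a and 0.20 in DN2b. Against R1 and R2 alone, Jak3 was 0.095 in DN2a and 0.084 in DN2b. Jak3 in DN2b over DN2a was 0.0027 by DESeq2 and 0.0079 with only those groups, and Stat5a in DN2a over DN1 was -0.011 with only those groups and -0.015 in the 6 DN libraries without the block. Leaving out 1 library, values spanned 0 in DN1 over IgG for Jak1 (-0.16 to 0.084), Jak3 (-0.098 to 0.39) and Stat5b (-0.036 to 0.54), in DN2a over IgG for Jak3 (-0.36 to 0.063) and Pim1 (-0.94 to 0.13), and in DN2b over IgG for Jak3 (-0.38 to 0.051) and Pim1 (-0.82 to 0.11). In DN2a over DN1 they did so for Pim1 (-0.10 to 0.98), Pim2 (-0.42 to 1.32), Stat5a (-0.49 to 0.75) and Stat5b (-0.21 to 0.36), and in DN2b over DN1 for Stat5a (-0.41 to 0.83) and Stat5b (-0.25 to 0.33). In both DN2 stages over DN1 they did so for Socs3 (-0.53 to 0.51), Stat5a (-0.45 to 0.79) and Stat5b (-0.23 to 0.34), and in DN2b over DN2a for Jak1 (-0.14 to 0.099), Jak3 (-0.13 to 0.11), Pim1 (-0.52 to 0.66), Pim2 (-0.49 to 2.50), Stat5a (-0.20 to 0.30) and Stat5b (-0.30 to 0.20). Where 1 library of a stage was left, it was assumed to vary like the other groups.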

Other observations

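B lineage and erythroid markers were not used above. The summed CPM of 6 B lineage markers was 5.93 to 20.1 in IgG, 9.01 to 13.7 in DN1, 7.12 to 12.7 in DN2a and 7.87 to 13.9 in DN2b, with Pax5 at 0 in all libraries except replicate 2 of DN2a. The 6 erythroid and megakaryocyte markers summed to 228 to 950 CPM in IgG, 123 to 423 in DN1, 117 to 140 in DN2a and 17.6 to 25.2 in DN2b, with Hba-a1 and Hbb-b1 listed at 0 in all 10 libraries. The 2 DN1 libraries differed in this sum in the same order as in the myeloid, mast cell and NK markers, replicate 1 above replicate 2.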
